A study of Mus musculus with 6 samples.

Results

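The complement genes *C1qa*, *C1qb*, *C1qc*, *C1ra*, *C2*, *C3*, *C4b*, *Cfb* and *Serping1* were followed in the proximal tibial epiphyses of 14-day-old mice. The 9 genes were chosen by name, as components and regulators of the early steps of the complement cascade, and each was found by its Ensembl identifier among the 47729 genes of the deposited RNAseq table. RNA came from 3 Control mice, of the random-bred ICR line, and from 3 mice of LS1, the Longshanks line 1, selected over generations for a long tibia at a given body mass. Both groups were of generation F13 and 14 days old, the mice came from different families, and both epiphyses of a mouse were pooled into its library. No treatment was given to either group. LS1 is 1 selected line, so a difference between the groups cannot be told apart from drift between the lines. The labels do not give the sex of the mice, which was read from Y-linked genes below and was spread unequally over the groups. The sampled tissue held cartilage, bone and marrow together. In such bulk RNA, more cells of a type and more RNA per cell cannot be told apart.

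Complement is a chain of blood and tissue proteins that tags microbes, dying cells and debris for removal. In the classical pathway, C1q binds a surface, the proteases C1r and C1s cut C4 and C2, and the fragments form an enzyme that cuts C3. In the alternative pathway, factor B takes the place of C2 in an enzyme that deposits more C3, and C1 inhibitor, the product of *Serping1*, blocks C1r and C1s. The liver makes most of the complement in plasma, whereas macrophages are the main source of C1q, and fibroblasts, cartilage cells and macrophages make several of the other components locally.

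Values are read counts per gene divided by a size factor for each library, called normalized counts here. Groups are given as mean ± SD (n = 3 mice each), and differences as log2 fold changes of LS1 over Control on log2(normalized count + 1). This scale understates changes in genes with low counts. Each difference was tested with limma, adjusting p by Benjamini-Hochberg over 19308 genes that averaged 20 or more reads. The 9 genes all entered this test, although *Cfb* reached that average only through its LS1 libraries. Control libraries held 68803249 to 76581954 reads, and LS1 libraries 82227711 to 88745366. In a principal component analysis, the first axis (35.1% of the variance) placed LS1 replicates 1 and 2 at 43.7 and 50.1 and the Control libraries between -41.5 and -22.1. LS1 replicate 3, at -4.29, stood apart from the other LS1 libraries, so results are also given without it. It was picked from these same data and was the LS1 library nearest to Control on that axis. Larger differences without it therefore add no support. The defining markers of the labelled tissue were read in every library, with *Col2a1* of cartilage at 1481070 ± 125259 normalized counts in Control and 1760550 ± 308802 in LS1, and *Bglap* of bone at 52875 ± 6247 and 27154 ± 13110.

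The adjusted test called 0 of the 9 complement genes, against 14 of 19308 tested genes (0.0725%). The log2 fold change lay above 0 in all 9, from 0.17 for *C1ra* to 2.32 for *Cfb*, with a median of 0.59 against 0.0054 over all tested genes, of which 50.7% lay above 0. The genes with an unadjusted limma p-value under 0.05 were *C3*, *C4b*, *Cfb* and *C1qb*, all 4 higher in LS1, while 7.08% of all tested genes did so in that direction and 12.9% in either. Every LS1 library was above every Control library for *C3* and *C4b* only, 2 of 9 genes, a pattern that 10.3% of the tested genes shared. DESeq2 on the recovered reads called *C3*, *C4b* and *Cfb* as higher in LS1, and it called 2.36% of all tested genes. *Cfb* is part of these counts and tops the range of differences, but it passed the read filter only through its LS1 libraries, so it adds no support. The next highest log2 fold change was 0.80, for *Serping1*. The edgeR quasi-likelihood test and limma-voom called 0 of the 9.

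The plainest feature of the 9 genes was a single library. LS1 replicate 2 had the highest value of the 6 libraries in 9 of 9, whereas that library was highest for 15.0% of the tested genes. The lowest value fell in Control replicate 1 for 4 of the genes, in Control replicate 2 for 3, and in LS1 replicates 1 and 3 for 1 each.

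**Figure D1:**
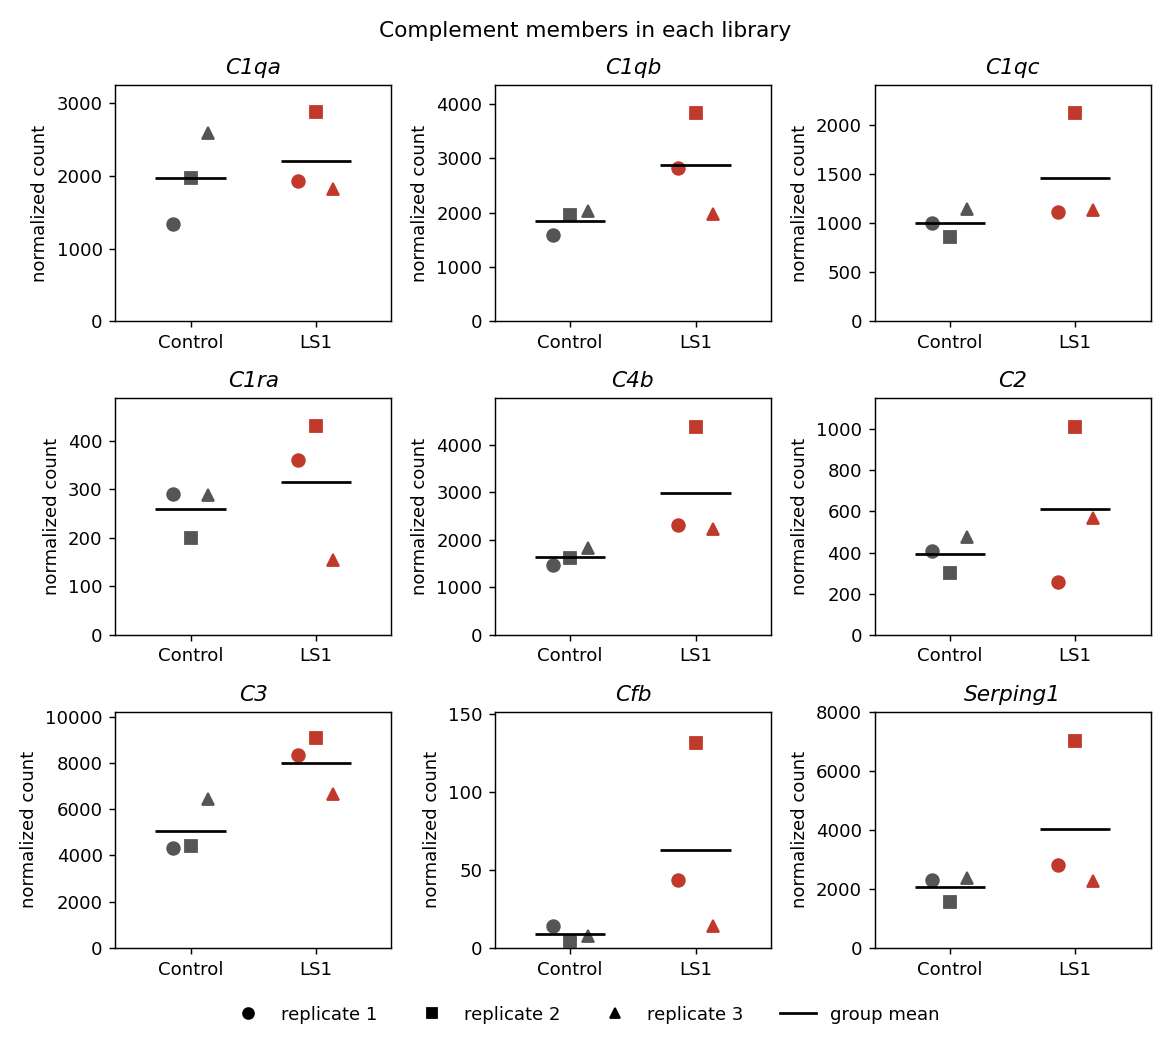
Normalized counts (vertical axis, from 0) of the 9 complement genes in each library, with 1 point per mouse, marker shape giving the replicate number and bars the group means. The square of LS1 replicate 2 is the highest point in each panel, and only *C3* and *C4b* have no overlap between the lines.

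C1q is built from 3 chains, encoded side by side on the minus strand of chromosome 4 in GRCm38, in the order *C1qb*, *C1qc* and *C1qa*. *C1qa* (ENSMUSG00000036887, chr4:136895917-136898803) is followed after 2851 bases by *C1qc* (ENSMUSG00000036896, chr4:136889804-136893065), and *C1qc* after 3616 bases by *C1qb* (ENSMUSG00000036905, chr4:136880129-136886187). No other annotated gene overlapped them. The chains fold together in equal number through a collagen-like stalk, and the globular heads bind antibody and other targets.

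*C1qb* had 1580, 1956 and 2023 normalized counts in Control replicates 1 to 3, and 2813, 3839 and 1966 in LS1 replicates 1 to 3. LS1 replicates 1 and 2 were above every Control library, while LS1 replicate 3 lay inside the Control range. The group values were 1853 ± 239 and 2873 ± 938, a log2 fold change of 0.59 (SE 0.22, 95% interval 0.10 to 1.08, adjusted p = 0.313 from limma). Without LS1 replicate 3 the difference was 0.83 (adjusted p = 0.0475 from limma), past the threshold. That fit called *C1qb* and *Cfb*, 2 of the 9 genes, and 1.68% of all tested genes. Without LS1 replicate 2 the *C1qb* difference was 0.35 (adjusted p = 0.564 from limma).

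*C1qc* had 1004, 863 and 1140 normalized counts in Control, and 1113, 2122 and 1129 in LS1. LS1 replicates 1 and 3 lay among the Control libraries, and LS1 replicate 2 alone was higher. The log2 fold change was 0.48 (SE 0.25, 95% interval -0.07 to 1.02, adjusted p = 0.445 from limma), and it was 0.17 without LS1 replicate 2. *C1qa* had 1338, 1974 and 2593 normalized counts in Control, and 1928, 2881 and 1817 in LS1. These groups overlapped widely, and Control replicate 3 was second only to LS1 replicate 2. The log2 fold change of *C1qa* was 0.19 (SE 0.25, 95% interval -0.37 to 0.74, adjusted p = 0.788 from limma), and its sign turned without LS1 replicate 2 (-0.021) or without Control replicate 1 (-0.066).

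Per kilobase of exon, *C1qa* gave 37.0% to 50.4% of the summed level of the 3 chains, *C1qb* 37.6% to 51.5% and *C1qc* 10.8% to 16.0%. The *C1qa* share was 39.5%, 45.8% and 50.4% in Control and 37.0%, 37.5% and 42.2% in LS1, and the *C1qb* share was 44.6%, 43.4% and 37.6% against 51.5%, 47.7% and 43.7%. The shares of the lines overlapped for each chain. The length used was that of all annotated exons of a gene together, 1040 bases for *C1qa*, 1088 for *C1qb* and 1931 for *C1qc*. The shares depend on these lengths, and a shorter main transcript of *C1qc* would raise its share.

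C1r is the protease that is activated first within the C1 complex. *C1ra* (ENSMUSG00000055172, chr6:124512405-124523443, plus strand) had 290, 200 and 289 normalized counts in Control, and 360, 430 and 154 in LS1. LS1 replicates 1 and 2 were above the Control libraries and LS1 replicate 3 was the lowest of all 6. The log2 fold change was 0.17 (SE 0.36, 95% interval -0.62 to 0.96, adjusted p = 0.876 from limma). It was 0.62 without LS1 replicate 3, and it turned to -0.12 without LS1 replicate 2 and to -0.0065 without Control replicate 2.

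*C1ra* has a near-identical copy, *C1rb*, 46850 bases further along the same strand. The main transcripts were 98% identical over 2429 aligned bases, with 49 mismatches, and 48% of all 50-base words of *C1ra* occurred in *C1rb*. The sequencing reads were 35 to 50 bases long, so reads from the shared stretches could be placed on either gene. The 50 bases of coding sequence that differ most between the copies are printed for the transcript strand in GRCm38 (*C1ra* at chr6:124522640-124522689, *C1rb* at chr6:124580686-124580735, both plus strand), with the 8 differing bases in capitals.
C1ra: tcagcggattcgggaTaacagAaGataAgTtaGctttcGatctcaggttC
C1rb: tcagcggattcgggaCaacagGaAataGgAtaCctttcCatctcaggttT

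*C1rb* had 36.3, 19.96 and 34.3 normalized counts in Control, and 16.2, 73.1 and 327 in LS1. It took 11.1%, 9.09% and 10.6% of the counts of the pair in Control, and 4.30%, 14.5% and 68.0% in LS1. LS1 replicate 3 was thus the library in which *C1ra* was lowest and *C1rb* highest, and there most counts of the pair fell on *C1rb*. Summed over the pair, Control libraries had 326, 220 and 323 normalized counts and LS1 libraries 376, 503 and 481. Every LS1 sum was above every Control sum, with a log2 fold change of 0.66 (SE 0.24, 95% interval 0.14 to 1.18, adjusted p = 0.299 from limma). The partner protease gene *C1s1* was also lowest in LS1 replicate 3, with 431, 411 and 466 normalized counts in Control and 558, 708 and 238 in LS1 (log2 fold change 0.06, SE 0.35, adjusted p = 0.959 from limma).

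**Figure D2:**
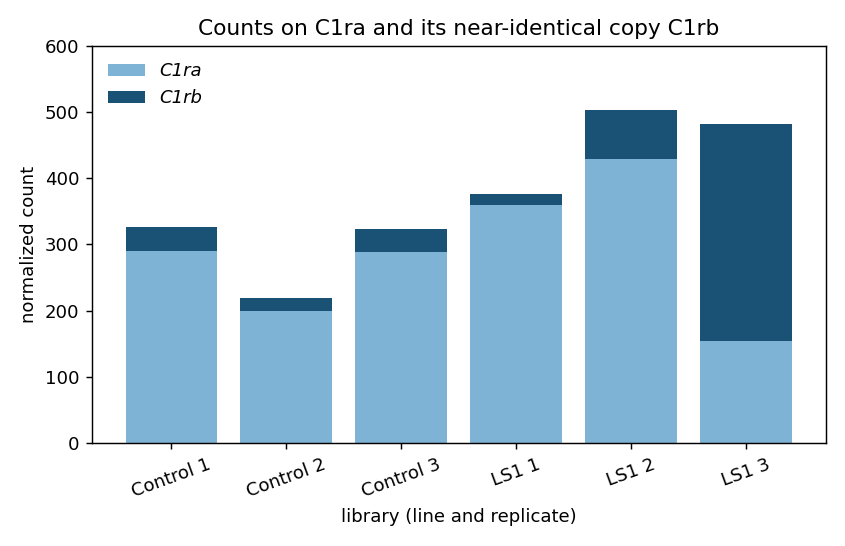
Normalized counts (vertical axis, from 0) assigned to *C1ra* (light) and its near-identical copy *C1rb* (dark), stacked for each of the 6 libraries. The stacks of the LS1 libraries reach 376 to 503 and those of the Control libraries 220 to 326, and in LS1 replicate 3 the copy *C1rb* holds 68.0% of the stack.

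C4 and C2 are the substrates of C1 and together form the classical C3-cutting enzyme. *C4b* (ENSMUSG00000073418, chr17:34728380-34743882, minus strand) had 1461, 1625 and 1834 normalized counts in Control, and 2321, 4383 and 2229 in LS1. The lowest LS1 library lay above the highest Control library, and LS1 replicate 2 was far above the other LS1 libraries. The group values were 1640 ± 187 and 2978 ± 1218, a log2 fold change of 0.79 (SE 0.24, 95% interval 0.26 to 1.32, adjusted p = 0.253 from limma). DESeq2 gave 0.85 (adjusted p = 0.0329). The difference was 0.48 without LS1 replicate 2 and 0.97 without LS1 replicate 3, limma giving adjusted p = 0.405 and 0.0764.

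*C4a*, the neighbouring copy of *C4b*, was 96.1% identical to it over 5367 aligned transcript bases, and 35.2% of the 50-base words of *C4b* occurred in it. The 50 coding bases with most differences between them are given on the transcript strand of GRCm38 (*C4b* at chr17:34735436-34735485, *C4a* at chr17:34816092-34816141, both minus strand), with the 11 differing bases in capitals.
C4b: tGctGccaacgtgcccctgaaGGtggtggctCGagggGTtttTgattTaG
C4a: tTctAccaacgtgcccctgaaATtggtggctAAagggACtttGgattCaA

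*C4a* took 5.05%, 5.78% and 11.7% of the counts of the pair in Control and 4.06%, 9.50% and 10.8% in LS1. With both copies summed the log2 fold change was 0.80 (SE 0.25, 95% interval 0.25 to 1.36, adjusted p = 0.262 from limma), close to that of *C4b* alone. Unlike the *C1ra* pair, no library placed most of its counts on the copy.

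*C2* (ENSMUSG00000024371, chr17:34862604-34898265, minus strand) had 410, 298 and 473 normalized counts in Control, and 258, 1009 and 566 in LS1. LS1 replicate 1 was the lowest of the 6 libraries and LS1 replicate 2 the highest. The log2 fold change was 0.45 (SE 0.44, 95% interval -0.55 to 1.45, adjusted p = 0.702 from limma), and it was -0.017 without LS1 replicate 2.

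C3 is the central component, whose larger fragment binds covalently to surfaces. *C3* (ENSMUSG00000024164, chr17:57203970-57228136, minus strand) had 4343, 4393 and 6434 normalized counts in Control, and 8334, 9051 and 6650 in LS1. The lines did not overlap, although Control replicate 3 and LS1 replicate 3 were close to each other. The group values were 5057 ± 1193 and 8012 ± 1232, a log2 fold change of 0.68 (SE 0.18, 95% interval 0.28 to 1.07, adjusted p = 0.220 from limma). DESeq2 gave 0.66 (adjusted p = 0.0484), just inside the threshold. *C3* depended least on LS1 replicate 2 among the genes with an unadjusted p-value under 0.05, with a log2 fold change of 0.58 without it. Without LS1 replicate 3 the difference was 0.81 (adjusted p = 0.0502 from limma), just outside the threshold.

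Factor B is the protease of the alternative pathway. *Cfb* (ENSMUSG00000090231, chr17:34856374-34862518, minus strand) lies 85 bases from *C2*. It had 14, 4 and 7 reads in Control, and 46, 151 and 15 in LS1, or 14.1, 4.43 and 7.74 normalized counts against 43.8, 131 and 14.0. LS1 replicates 1 and 2 were above every Control library, whereas LS1 replicate 3 was level with Control replicate 1. The group values were 8.77 ± 4.93 and 63.1 ± 61.0, a log2 fold change of 2.32 (SE 0.74, 95% interval 0.69 to 3.95, adjusted p = 0.264 from limma). DESeq2 gave 2.83 (adjusted p = 0.0199). The difference was 3.10 without LS1 replicate 3 (adjusted p = 0.0313 from limma) and 1.53 without LS1 replicate 2 (adjusted p = 0.487 from limma). A pseudocount of 10 in place of 1 lowered it to 1.63.

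In the annotation used here, 2246 of the 2825 exon bases of *Cfb* (79.5%) and 1656 of the 3872 exon bases of *C2* (42.8%) also belong to a readthrough gene, *Gm20547*, that joins them. *Gm20547* had 0 reads in all 6 libraries. Reads on the shared bases were thus not counted for *Gm20547* as well as for *Cfb* or *C2*. The setting for shared reads is not given in the sources used here, so such reads may have been dropped and the levels of *Cfb* and *C2* may be too low. The strand setting of the count is not given either, and 161 exon bases of *C2* overlap the antisense gene *Zbtb12*.

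*Serping1* (ENSMUSG00000023224, chr2:84765387-84775444, minus strand), encoding the C1 inhibitor, had 2297, 1570 and 2359 normalized counts in Control, and 2810, 7006 and 2282 in LS1. LS1 replicate 2 was well above the 5 other libraries, LS1 replicate 1 was slightly above Control, and LS1 replicate 3 lay inside the Control range. The group values were 2076 ± 439 and 4033 ± 2589, a log2 fold change of 0.80 (SE 0.43, 95% interval -0.23 to 1.83, adjusted p = 0.489 from limma). Without LS1 replicate 2 it was 0.31.

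**Figure D3:**
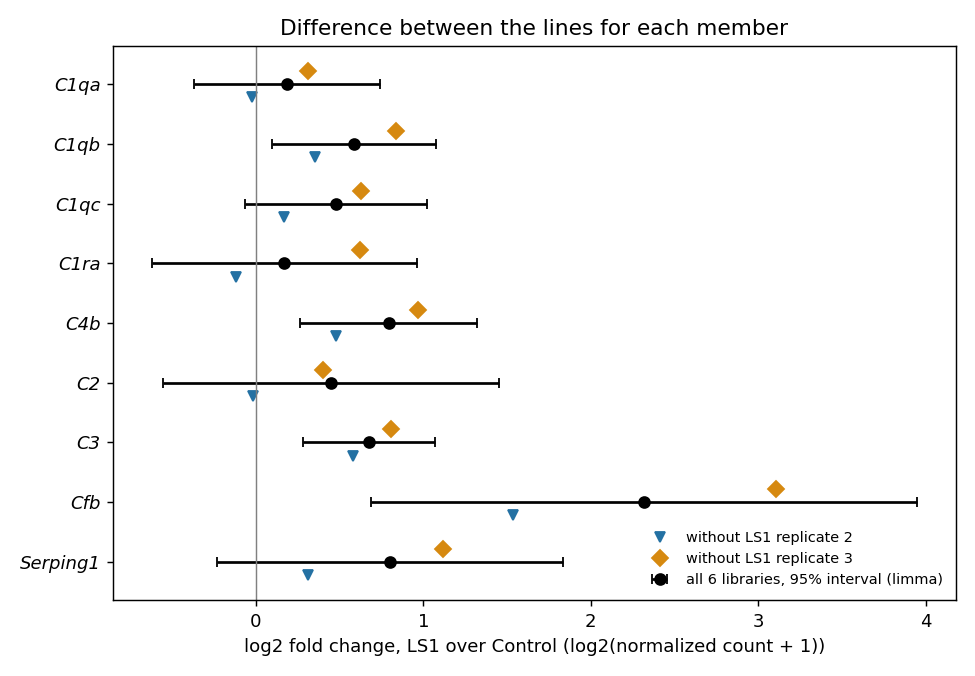
Log2 fold change of LS1 over Control for each of the 9 complement genes (horizontal axis, on log2(normalized count + 1)), as circles with 95% intervals from limma on all 6 libraries, triangles without LS1 replicate 2 and diamonds without LS1 replicate 3. Without LS1 replicate 2 each estimate moves down and *C1qa*, *C1ra* and *C2* fall to -0.12 to -0.017, while without LS1 replicate 3 each estimate but that of *C2* moves up.

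Levels can be compared between genes per kilobase of exon. On that scale the order in Control was *C1qa* (1893 ± 603), *C1qb* (1703 ± 219), *C3* (983 ± 232), *Serping1* (893 ± 189), *C1qc* (519 ± 71.9), *C4b* (288 ± 32.8), *C2* (102 ± 22.9), *C1ra* (87.0 ± 17.4) and *Cfb* (3.10 ± 1.74). *C1qa* and *C1qb*, *C3* and *Serping1*, and *C2* and *C1ra* were neighbours that differed by less than their spread. In LS1 the order was *C1qb* (2640 ± 862), *C1qa* (2124 ± 563), *Serping1* (1734 ± 1113), *C3* (1558 ± 240), *C1qc* (753 ± 299), *C4b* (523 ± 214), *C2* (158 ± 97.4), *C1ra* (106 ± 48.1) and *Cfb* (22.3 ± 21.6), with swaps only within the neighbouring pairs of *C1qa* with *C1qb* and of *C3* with *Serping1*. The wide spread of *Serping1* in LS1 covered the means of *C1qb*, *C1qa*, *C3* and *C1qc*. *C1qb* and *C1qa* stood at percentiles 90.8 and 90.0 of all tested genes by mean level per kilobase, *Serping1* and *C3* at 83.9 and 83.4, *C1qc* at 69.0 and *C4b* at 58.5. *C2* and *C1ra* stood at percentiles 35.8 and 31.3, and *Cfb* at 6.49. The places of *Cfb* and *C2* may be too low, since their levels were divided by all exon bases, those shared with *Gm20547* included.

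Of 44 other complement genes listed by step of the cascade, 30 were tested and 0 were called by limma. Their log2 fold changes had a median of 0.16, with 20 above and 10 below 0. Before adjustment, p fell under 0.05 for 6 that were higher, among them *C3ar1*, *Itgax*, *Itgam*, *Cd55* and *Colec12*, and for 2 that were lower (*Cpn1* and *Masp2*), where 7.08% of all tested genes were higher at that threshold and 12.9% passed it in either direction. The receptors accounted for 3 of the 6, out of 7 receptors tested. Every LS1 library was above every Control library for 4 of the 30, *C3ar1*, *Itgam*, *Itgax* and *Cd55*, a pattern that 10.3% of the tested genes shared. The reverse held for 1, *Cpn1*, and the share of tested genes with that reverse pattern is not given here. DESeq2 called 1 of the 30, *C3ar1*, as did limma without LS1 replicate 3, and 2.36% and 1.68% of all tested genes were called in these fits.

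*C3ar1*, the receptor for the small C3 fragment C3a, had 261, 388 and 393 normalized counts in Control, and 1096, 936 and 458 in LS1. The lines did not overlap, and here LS1 replicate 1 rather than replicate 2 was highest. Its log2 fold change was 1.18 (SE 0.32, 95% interval 0.49 to 1.88, adjusted p = 0.222 from limma), with adjusted p = 0.00472 from DESeq2 and 0.00655 from limma without LS1 replicate 3. *Itgam* and *Itgax*, the alpha chains of the integrin receptors for C3 fragments, differed between the lines by 0.35 and 0.60 on the log2 scale, without overlap (limma, adjusted p = 0.299 and 0.271).

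Regulators beside *Serping1* gave values in both directions. *Cd55*, which dissociates the C3-cutting enzymes on the cell surface, had a log2 fold change of 0.44 (adjusted p = 0.322 from limma) with no overlap between the lines. *Cpn1*, the catalytic subunit of carboxypeptidase N, which trims C3a and C5a, had 41.1 ± 6.18 normalized counts in Control against 21.2 ± 3.60 in LS1 without overlap, a log2 fold change of -0.93 (adjusted p = 0.345 from limma).

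The collectin *Colec12*, listed with the recognition genes and proteases, had a log2 fold change of 0.36 (adjusted p = 0.337 from limma). *Masp2*, the lectin pathway protease that cuts C4 and C2, had 48.4, 94.2 and 96.2 normalized counts in Control and 66.7, 4.35 and 24.3 in LS1, a log2 fold change of -1.88 (adjusted p = 0.378 from limma) that was -0.90 without LS1 replicate 2. LS1 replicate 2, the highest library for the classical pathway genes above, was the lowest for *Masp2*. In the alternative pathway, the log2 fold changes were -0.14 for *Cfd*, encoding factor D that cuts factor B, and 0.06 for *Cfp*, encoding properdin that stabilises the enzyme (limma, adjusted p = 0.911 and 0.920). *C4a* had 0.90 (adjusted p = 0.578 from limma) and *Cr1l*, a membrane regulator, 0.19 (adjusted p = 0.574 from limma).

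Too few reads for the test were found for 14 listed genes, namely *C1s2*, *Mbl1*, *Mbl2*, *Colec10*, *Masp1*, *C7*, *C8a*, *C8b*, *C9*, *Cfi*, *C4bp*, *Cpn2*, *Cd55b* and *Vsig4*. These include most of the terminal components, which form the membrane pore. The terminal components tested were *Hc*, encoding C5, with a log2 fold change of 0.96, *C6* with 0.04 and *C8g* with -0.01 (limma, adjusted p = 0.586, 0.973 and 0.993). *Hc* had 4, 33 and 18 reads in Control and 40, 20 and 42 in LS1. Like *Cfb*, it passed the read filter only through its LS1 libraries, so it adds no support to the count above 0. With a library left out, its log2 fold change ran from 0.13 to 1.58.

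Relative to the Control mean of each gene, the median log2 level of the 9 genes was 0.01, -0.21 and 0.20 in Control replicates 1 to 3, and 0.49, 1.09 and 0.18 in LS1 replicates 1 to 3. The 14 listed interferon-response genes had medians of 0.20, -0.09 and -0.26 in Control and 2.13, 3.29 and -0.02 in LS1. The LS1 libraries were thus in the same order for both lists, and LS1 replicate 3 lay inside the Control range for both. All 14 interferon-response genes were tested, 1 had an unadjusted p-value under 0.05 and 0 were called by limma, with a median log2 fold change of 1.75 and normalized counts that summed to between 15261 and 22941 in Control libraries and between 17636 and 99011 in LS1 libraries. The part of interferon-response genes in the complement values was not tested.

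Macrophages are the main source of C1q, and 12 of 12 macrophage markers were tested. Their medians were -0.04, 0.03 and -0.10 in Control and 0.40, 0.51 and 0.15 in LS1, and their summed normalized counts were 34440 to 43088 in Control and 42599 to 48976 in LS1. By these medians the LS1 libraries were in the same order as for the complement and interferon-response genes. Among the single markers, only *Mertk*, *Fcgr1* and *Axl* had that order. Of the defining markers, *Adgre1* was highest in LS1 replicate 1 and *Csf1r* in LS1 replicate 3. *Cd68* was highest in LS1 replicate 2, but its lowest LS1 library was replicate 1. The order of the medians is thus not that of most markers. Of the 12, 11 lay above 0 and 0 were called by limma, with a median log2 fold change of 0.31. *Cd163* was the marker below 0, at -0.44. An unadjusted limma p-value under 0.05 was found for 2, *Fcgr1* and *Siglec1*, both higher in LS1. Of all tested genes, 7.08% were higher at that threshold and 12.9% passed it in either direction. No macrophage marker was at 0 reads, and the defining markers *Csf1r*, *Cd68* and *Adgre1* differed by 0.09, 0.15 and 0.83 on the log2 scale (limma, adjusted p = 0.876, 0.722 and 0.452). The part of macrophage number in the *C1qb* difference was not tested.

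Stromal and fibroblast markers, from cells that also make complement, had medians of -0.03, -0.15 and 0.14 in Control and 0.39, -0.12 and 0.29 in LS1, so that LS1 replicate 2 was not their highest library. Of 9 chondrocyte markers, 9 lay above 0 and 6 had an unadjusted p-value under 0.05, with a median log2 fold change of 0.61. Median log2 fold changes of the other marker lists were 0.23 for neutrophils, 0.22 for stromal cells and fibroblasts, 0.12 for endothelium, 0.03 for osteoclasts, 0.01 for osteoblasts, -0.44 for B cells and -0.49 for erythroid cells, with 0 genes of these lists called by limma. Hepatocyte markers were near absent, with summed normalized counts of 45.3 to 59.9 in Control and 44.8 to 61.8 in LS1, and at most 8 reads of *Alb* in a library.

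The Y-linked genes summed to 19313 to 30556 normalized counts in Control replicate 3 and LS1 replicates 1 and 3, and to 90.5 to 149 in Control replicates 1 and 2 and LS1 replicate 2. By these sums the former libraries were read as male and the latter as female. LS1 replicate 2, highest for all 9 complement genes, was the only LS1 library read as female. Within LS1, its sex and its other traits cannot be told apart. With the Y-linked level as a covariate the log2 fold changes were 0.64 for *C3*, 0.91 for *C4b*, 0.67 for *C1qb*, 2.71 for *Cfb* and 1.00 for *Serping1*, and limma called 0 of the 9 genes.

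**Figure D4:**
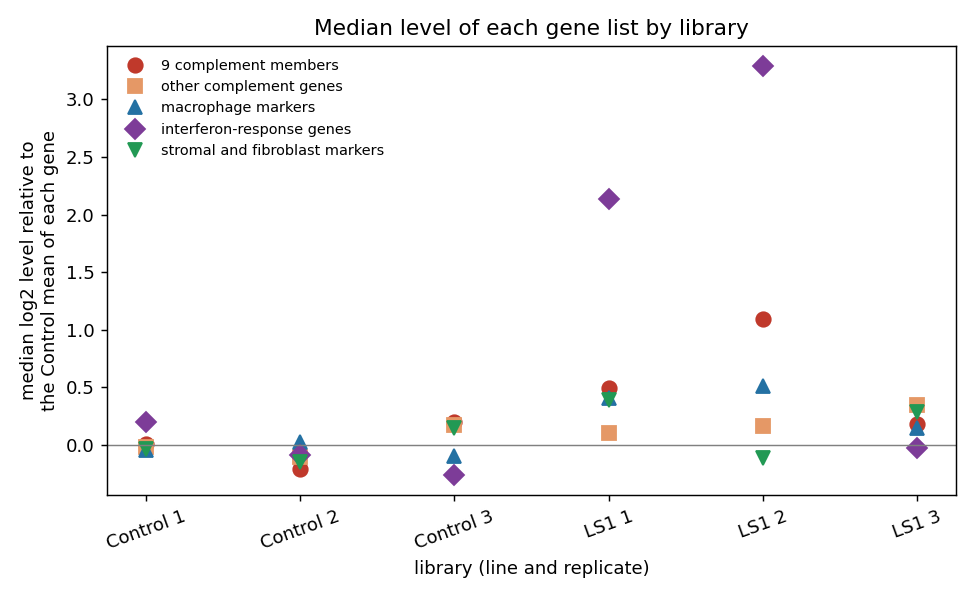
Median log2 level of 5 gene lists in each library (vertical axis, relative to the Control mean of each gene), with 1 point per list and library. The 9 complement genes and the interferon-response genes peak in LS1 replicate 2, at 1.09 and 3.29, and return to 0.18 and -0.02 in LS1 replicate 3. The median of the macrophage markers also peaks in LS1 replicate 2, at 0.51, and is at 0.15 in LS1 replicate 3, an order that most single markers do not share.

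For each of the 9 genes, the genes of most similar pattern were taken by the root mean square difference of centred log2 levels over the 6 libraries, among 14709 genes outside the complement list that averaged 100 or more reads. The nearest were *Batf3* for *C1qa* (0.0591), *Tnfrsf1b* for *C1qb* (0.0957), *Irf8* for *C1qc* (0.0848), *Hdc* for *C1ra* (0.144), *Angptl7* for *C2* (0.185), *Clec5a* for *C3* (0.0795), *Xdh* for *C4b* (0.0893), *Serpina3g* for *Cfb* (0.365) and *Cd40* for *Serping1* (0.137). The second nearest were *Tvp23a*, *Thbs4*, *Enpp4*, *Crybg1*, *Gstp3*, *Alcam*, *Icam1*, *AW112010* and *Gm2564*, in the same order, with differences of 0.0940 to 0.385. Among the 9 genes themselves, *C1qb* and *C4b* were each other's nearest (0.192), and *C4b* was also nearest to *C1qc* (0.193) and *Serping1* (0.277). *Cfb* was the most distant from the rest, at 0.941 from its nearest member, *Serping1*. The levels were not scaled, so this distance also reflects the size of the changes. The root mean square deviation of *Cfb* from its own mean was 1.53, against 0.36 (*C1qa*) to 0.67 (*Serping1*) for the others.

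Promoter sequence from RefSeq (GRCm38.p6) was at hand for *C1qb*, *C1qc*, *C1ra* and *C3*, 4 of the 9 genes, as windows of 300 bases that end 50 bases after the gene start. Gene start here means the start used for these windows, which differs from the coordinates given above for *C1qb*, *C1qc* and *C1ra*. The windows were searched on both strands for the interferon regulatory factor core AANNGAAA, which 23.9% of 32851 promoter windows hold, for TTCNNNGAA of STAT factors (8.30%), GAGGAAGT of PU.1 (3.20%) and GGNNNTTCC of NF-kappaB (18.5%). The core of interferon regulatory factors was found in *C1qc* and *C3* and not in *C1qb* and *C1ra*. The part of these letters in the levels of the genes was not tested. The 250 bases before this start of *C1qc* and *C3* are printed to show where the letters lie. By the coordinates above, *C1qc* reaches to base 136893065, so part of its printed stretch, with the core, lies inside the gene. Capitals mark the core in both and, in *C1qc*, the PU.1 letters on the opposite strand, which come first (*C1qc* at chr4:136892915-136893164, *C3* at chr17:57228137-57228386, both minus strand).
C1qc: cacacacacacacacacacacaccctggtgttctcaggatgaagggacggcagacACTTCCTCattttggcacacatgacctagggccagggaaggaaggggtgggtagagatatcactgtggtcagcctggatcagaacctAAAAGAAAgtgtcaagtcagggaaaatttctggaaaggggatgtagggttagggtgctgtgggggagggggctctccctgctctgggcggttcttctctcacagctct
C3: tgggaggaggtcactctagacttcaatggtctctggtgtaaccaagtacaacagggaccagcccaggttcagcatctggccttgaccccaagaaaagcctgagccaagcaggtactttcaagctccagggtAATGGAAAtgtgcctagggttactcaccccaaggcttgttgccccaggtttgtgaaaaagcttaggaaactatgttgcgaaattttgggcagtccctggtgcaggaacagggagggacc

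The STAT letters were found once among the 4 genes, in *C1ra*, 32 bases after the start used for its window. They were also found in the copy *C1rb*, 119 bases before the start used for its window. In the coordinates used for the counts, both matches lie after the gene start, at 124512405 for *C1ra* and 124570294 for *C1rb*. The *C1rb* window also held the interferon regulatory factor core. The NF-kappaB letters were found in *C1qb*, 35 bases after the start used for its window. With 4 genes against motifs that 3.20% to 23.9% of promoters hold, these matches are a description of the sequence and say nothing about binding in this tissue.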

How the data were processed

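RNAseq was made from polyadenylated RNA of 6 pooled-epiphysis libraries, 3 per group, grouped by the strain given in the labels. HISAT2 2.0.2 (GRCm38, Ensembl annotation) and featureCounts 1.4.6 were run by the authors for mapping and counting. The deposited table holds a normalized signal, read counts divided by 1 DESeq2 size factor per library. Dividing each deposited value by the value of 1 read gave whole reads (tolerance 0.01) for 100% of values. In Control replicate 1 that step was too close to 1 to be checked, so count tests were repeated on the 5 other libraries.

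Genes with a mean of at least 20 reads entered limma (version 3.58.1 under R 4.3.3), which used log2(value + 1), trend and robust moderation, and a threshold of 0.05. Alternatives used edgeR 4.0.16, DESeq2 1.42.0 and limma-voom. Symbols, coordinates and exons came from GENCODE M21 (99.12% of identifiers matched). Scripts were tested on simulated data. Precision is limited by 3 mice per group and, for *Cfb*, by reads. Genes named are the 9 genes, listed complement genes with an unadjusted p-value under 0.05 or next in the cascade to 1 of them, the others as examples after their values were seen, and the 2 nearest genes by pattern. The genes and lists were chosen with earlier results of these data known. The values of 1 listed complement gene are not reported here.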

Additional observations from a re-analysis of the deposited data

How the results depend on the processing

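The count of called complement genes was 0 in limma on all libraries and was recomputed under 21 alternatives, 19 planned and 2 chosen after seeing the data. It was 3 with DESeq2 (*C3*, *C4b* and *Cfb*), 2 without LS1 replicate 3 (*C1qb* and *Cfb*), 1 with DESeq2 on the 5 libraries other than Control replicate 1 (*Cfb*, adjusted p = 0.0389), and 0 under each other alternative, so leaving out a library gave 0 to 2. The other complement genes called were 1 with DESeq2 and 0 to 1 when a library was left out. All genes called, 14 in limma, were 7 with edgeR, 456 with DESeq2, 8 with limma-voom, 3 without trend and robust moderation, 9 at a mean of at least 100 reads (which leaves out *Cfb*), 45 with no filter beyond 1 read, 5 to 324 when a library was left out, and 5 with edgeR and 242 with DESeq2 on the 5 libraries. The causes were not tested. Signs turned for *C1qa* on the 5 libraries (-0.068 with edgeR, -0.059 with DESeq2). With a library left out, the log2 fold change of *C1qa* ran from -0.066 (without Control replicate 1, -0.021 without LS1 replicate 2) to 0.41, that of *C1ra* from -0.12 (without LS1 replicate 2, -0.0065 without Control replicate 2) to 0.62, and that of *C2* from -0.017 (without LS1 replicate 2) to 0.96.

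Sample titles share a letter between 1 Control and 1 LS1 library, of which the labels give no meaning. Deviations of same-letter libraries correlated at 0.0536, 0.0211 and 0.224, so the letters were not taken as pairs. With the replicate block, 12 genes were called in all and 0 of the 9. Reads limit *Cfb* most, since its Control libraries held 4 to 14. It passed the read filter only through its LS1 libraries, which bears on each count above that includes it.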
